A study of Homo sapiens with 2 samples.

Results

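Complement is a cascade of plasma and membrane proteins, and the liver makes most of its soluble components. C3 is its central component, which convertases cleave, and C5 opens the terminal pathway that ends in the membrane attack complex. CFB carries the protease of the alternative pathway convertase, and C1R and C1S are the proteases of the C1 complex. CFI is a plasma protease that inactivates cleaved C3 and C4 with the help of cofactors. Cells protect themselves with CD46, a membrane cofactor of CFI, with CD55, which dissociates the convertases, and with CD59, which stops C9 from completing the attack complex. CD55 and CD59 are held in the membrane by a glycosylphosphatidylinositol (GPI) anchor.

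These 9 genes were looked up by symbol among the 16424 genes listed in a cap analysis of gene expression (CAGE) of the hepatoma line PLC/PRF/5, which was grown from a human liver tumour. M2BPGi is a glycosylated form of Mac-2 binding protein that serves as a serum marker of liver fibrosis. The study made 1 library of non-treated cells (0 µg/ml) and 1 library of cells that were kept with 3 µg/ml M2BPGi for 6 h. The comparison asks which signals M2BPGi changes in hepatocellular carcinoma cells. The libraries held 24040209 tags (non-treated) and 24862941 tags (M2BPGi-treated), as inferred from the values. CAGE counts 1 tag for each capped 5′ end, so levels of different genes, given as CPM (tags scaled to the library's size), were compared without division by transcript length. No condition had a replicate, so no difference could be tested. The 95% intervals cover counting error only and compare these libraries, not the conditions.

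Of the 9 genes, 7 were listed and 6 passed the filter of a mean of at least 1 CPM. The levels of CFB and C1S were not analysed here. C1R was listed at 0 in both libraries, where 3 tags would give 0.125 and 0.121 CPM. All 6 genes that passed had lower values in M2BPGi-treated than in non-treated cells, also after the libraries were rescaled to an equal median. Their median log2 ratio of CPM + 1 was −0.24, against −0.05 over all 13724 genes that passed the same filter, of which 57.0% were lower. Only CFI was past 1.5-fold. Of all tested genes, 4.04% were at least 1.5-fold lower and 1.60% at least 1.5-fold higher, and 1 of 6 members is too small a count to set apart from this share. In a culture, fewer cells with a transcript and less of it per cell cannot be told apart.

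Among the secreted components, C3 was the most abundant. It had 614.18 CPM (14765 tags) without and 493.38 CPM (12267 tags) with M2BPGi. The ratio of tags was −0.32 on the log2 scale (exact Clopper-Pearson 95% interval −0.35 to −0.28). C3 ranked 241 among all listed genes by mean CPM. C5 was nearly an order of magnitude less abundant, with 58.82 CPM without and 53.65 CPM with M2BPGi. Its log2 ratio of tags was −0.13 (−0.24 to −0.02), the smallest difference among the 6 genes. The C3 level was 10.4 times that of C5 in non-treated and 9.20 times in M2BPGi-treated cells.

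CFI was the least abundant of the 6 genes and had the lowest ratio. It had 7.36 CPM (177 tags) without and 4.38 CPM (109 tags) with M2BPGi. Its log2 ratio was −0.64 on CPM + 1 and −0.75 on tags (−1.11 to −0.40). Only 3.03% of all tested genes had a lower ratio, against 19.1% for C3 and 39.5% for C5. Of 4260 genes with a mean of 1 to 10 CPM, 7.79% were at least 1.5-fold lower, a larger share than the 4.04% of all tested genes. The ratio of CFI was no longer past 1.5-fold with a pseudocount of 5 CPM (−0.40) or after the libraries were rescaled to an equal median (−0.58). It was also below the filter when a mean of 10 CPM was required.

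The membrane regulators were expressed at levels between those of C3 and CFI. CD59 had 314.35 CPM without and 281.74 CPM with M2BPGi, a log2 ratio of tags of −0.16 (−0.21 to −0.11). CD46 had 203.37 CPM and 165.35 CPM in the same order, a log2 ratio of −0.30 (−0.36 to −0.24). CD55 was the least abundant regulator on the membrane, with 19.84 CPM (477 tags) and 17.42 CPM (433 tags). The interval of its log2 ratio, −0.38 to 0.003, included 0, so the CD55 values of these libraries did not differ beyond counting error. CD59 was 15.8 times as abundant as CD55, which shares its type of anchor, in non-treated cells and 16.2 times in M2BPGi-treated cells.

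**Figure D1:**
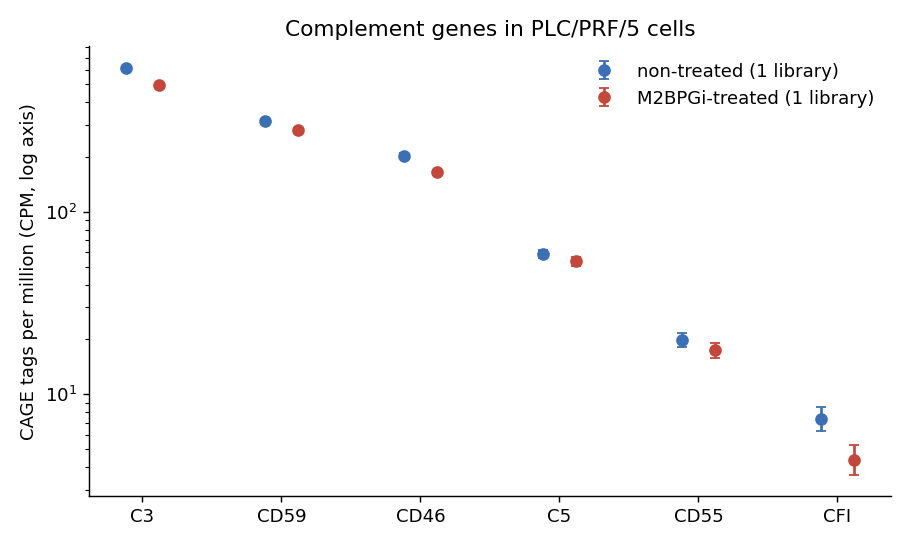
CAGE level in CPM on a log axis for the 6 complement genes with a mean of at least 1 CPM, with 1 point per library (blue non-treated, red M2BPGi-treated) and 95% Poisson intervals for counting error, which are smaller than the points for C3, CD59 and CD46. The order of the genes is the same in both libraries, from C3 (614.18 and 493.38 CPM) to CFI (7.36 and 4.38 CPM), and each red point lies below its blue one.

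The order of levels was C3, CD59, CD46, C5, CD55 and CFI in both libraries, and the counting intervals of neighbours in this order did not overlap within a library. C3 held 50.4% (49.9 to 51.0) of the tags of the listed members in non-treated and 48.6% (47.9 to 49.2) in M2BPGi-treated cells. CD59 held 25.8% (25.3 to 26.3) and 27.7% (27.2 to 28.3). The share of CD59 was thus higher in M2BPGi-treated cells, although its level was lower. Summed by place, the secreted C3, C5 and CFI had 680.36 CPM without and 551.41 CPM with M2BPGi, a log2 ratio of −0.30 (−0.34 to −0.27). CD46, CD55 and CD59 together had 537.56 CPM and 464.51 CPM, a log2 ratio of −0.21 (−0.25 to −0.17). The secreted sum is mostly C3, and the largest part of the membrane sum is CD59. Not all genes followed this split, which was made after the values were seen. The log2 ratio of CD46 (−0.30) was near that of C3 (−0.32), and that of C5 (−0.13) was nearer to 0 than that of each membrane regulator.

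Of 50 other complement genes listed by hand, 13 were listed in the data and 11 passed the filter, with a median log2 ratio of −0.25. Without the filter, which adds CFP and ITGAM, both listed at 0, the median was −0.05. Lower values were found for 7 and higher values for 4 of the 11, against 57.0% lower over all tested genes. None of the 11 was past 1.5-fold, against 4.04% lower and 1.60% higher over all tested genes. CLU (clusterin), which binds the attack complex in plasma, was by far the most abundant, at 7636.12 CPM without and 6255.78 CPM with M2BPGi (log2 ratio of tags −0.29, −0.30 to −0.28). SERPING1, the inhibitor of the C1 proteases, was close to C3 in level, with 542.76 and 442.83 CPM (−0.29, −0.33 to −0.26).

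C1RL, a protease related to C1R, had 12.69 and 9.53 CPM, and CPN1, a subunit of the carboxypeptidase that trims C3a and C5a, had 20.09 and 16.69 CPM. C2, the protease of the classical pathway convertase, had 2.37 and 1.53 CPM. C9, the pore-forming component, had 60.81 and 58.80 CPM, a difference within its counting interval (−0.15 to 0.06).

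Higher values in M2BPGi-treated cells were found for C1QBP, CFD, CSMD1 and C5AR1. C1QBP, a mainly mitochondrial protein that binds C1q, had 306.61 CPM without and 383.94 CPM with M2BPGi, a log2 ratio of tags of 0.32 (0.28 to 0.37). CFD, the protease that cleaves CFB, had 3.83 and 6.03 CPM, and its log2 ratio of CPM + 1 was 0.54. The intervals of CSMD1 (4.08 and 5.11 CPM) and of the C5a receptor C5AR1 (14.73 and 16.77 CPM) included 0.

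**Figure D2:**
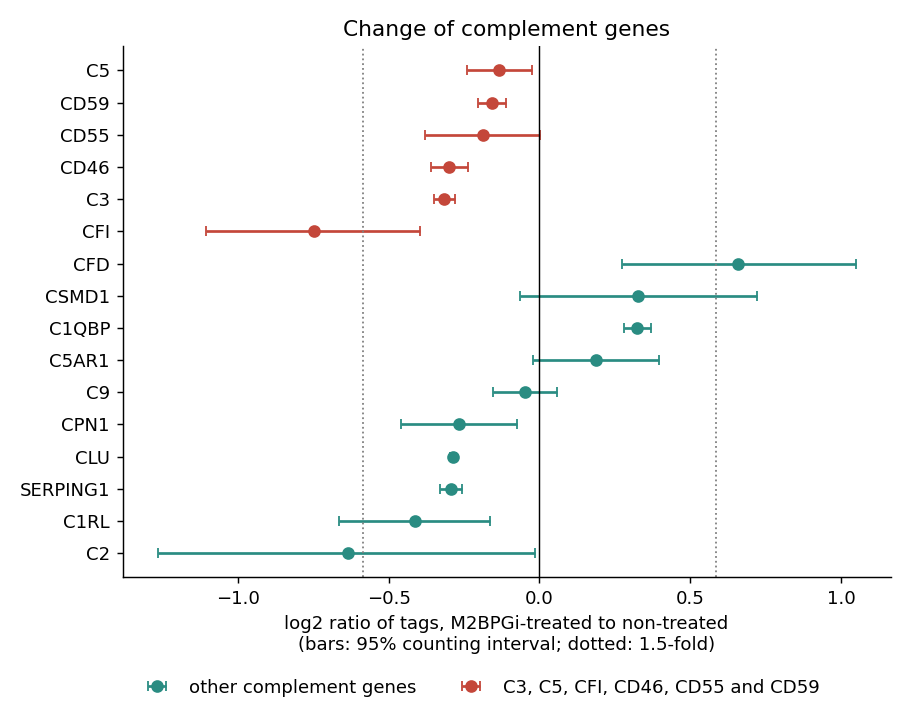
Log2 ratio of tags, M2BPGi-treated to non-treated, for the 6 members (red) and 10 of the 11 other complement genes with a mean of at least 1 CPM (green), with exact 95% counting intervals and dotted lines at 1.5-fold. The red points all lie below 0, and C1QBP and CFD are the green points whose intervals lie above 0. C2 and CFD are past a dotted line here but not on the scale of CPM + 1, which was used to count genes past 1.5-fold.

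The median ratio differed with level, and the part of level in the members' ratios was not tested. The median log2 ratio was 0.10 over 1924 genes with a mean of at least 100 CPM, the range that holds C3, CD59 and CD46, whose ratios were −0.32, −0.16 and −0.30. It was −0.05 over 7540 genes from 10 to 100 CPM, the range of C5 and CD55. Over 4260 genes from 1 to 10 CPM, the range of CFI, it was −0.11. Transcript length also went with the ratio: the median was 0.03 in the shortest and −0.12 in the longest quartile of genes by longest transcript. C3, C5, CD46 and CD59 were in the longest quartile, and the part of length in their ratios was not tested. The 219 higher and 555 lower genes became 298 and 412 after the rescaling to an equal median.

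**Figure D3:**
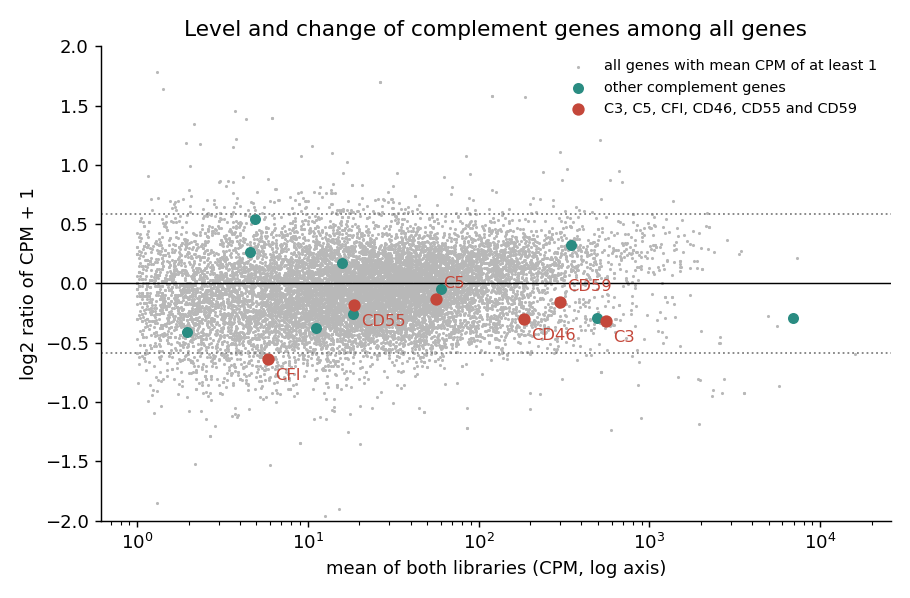
Mean of both libraries in CPM (log axis) against the log2 ratio of CPM + 1 for the 13724 genes with a mean of at least 1 CPM (grey), the same 10 other complement genes (green) and C3, C5, CFI, CD46, CD55 and CD59 (red), with dotted lines at 1.5-fold. CFI lies just past the lower line at low level, and the other red points lie between 0 and that line. The vertical axis ends at −2 and 2, and 25 genes lie outside it.

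Genes listed for the synthesis, attachment or remodelling of the GPI anchor, which holds CD55 and CD59, had a median log2 ratio of CPM + 1 of −0.23. All ratios that follow are on this scale. Of 29 such genes 27 passed the filter, with lower values for 23, and 2 were at least 1.5-fold lower, against 57.0% and 4.04% of all tested genes. PIGT, a subunit of the transamidase that attaches the anchor, was the most abundant, with 334.31 CPM without and 268.39 CPM with M2BPGi (log2 ratio −0.32). PIGN (33.86 and 24.37 CPM) and PIGW (37.73 and 27.23 CPM) had the lowest ratios among genes with a mean of at least 10 CPM, and DPM3 (236.19 and 249.81 CPM) and DPM1 (51.16 and 52.73 CPM) the highest. The genes past the fold, PIGV (10.15 and 5.83 CPM) and PGAP3 (8.36 and 4.79 CPM), lay in the range of 1 to 10 CPM, where 7.79% of genes were as much lower. They were named after their values were seen. Neither was past the fold with a pseudocount of 5 CPM (−0.48 and −0.45), and a filter of at least 10 CPM left both out.

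Transcription factors and signalling genes that act on liver complement genes were lower and higher in equal number. Of 19 listed by hand 18 passed the filter, with 9 lower and 9 higher, against 57.0% lower over all tested genes, and a median log2 ratio near 0 (−0.0047, and 0.05 after the rescaling). IRF1, an interferon-inducible factor, had 17.26 CPM without and 8.97 CPM with M2BPGi, a log2 ratio of −0.87, and was the 1 gene of this list past 1.5-fold lower, against 4.04% of all tested genes. NFKB2 had 76.66 and 56.83 CPM (−0.43). CEBPB, a factor of the acute phase response, had 112.56 and 155.25 CPM (0.46), and the hepatocyte factor HNF4A had 39.14 and 43.84 CPM (0.16).

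The cells were checked against markers. Of 18 hepatocyte markers 17 passed the filter, and their sum was 7795.36 CPM without and 6556.59 CPM with M2BPGi. Their median log2 ratio was −0.35, lower than that of the complement members, and 14 of 17 were lower. FGB (950.03 and 622.73 CPM) and FGA (1015.22 and 686.56 CPM), chains of fibrinogen, had the lowest ratios among the markers with at least 10 CPM. FGB and TF (6.61 and 4.02 CPM, named after its values were seen) were past 1.5-fold lower, against 4.04% of all tested genes. Neither was after the rescaling (−0.56 and −0.55), nor was TF with a pseudocount of 5 CPM (−0.36). The keratin KRT18 (1249.78 and 1592.01 CPM) and APOA2 (241.43 and 260.63 CPM) had the highest ratios. ALB, the defining gene of hepatocytes, had 8.82 and 7.04 CPM, far below the fibrinogen genes. Most hepatocyte markers thus had lower values in the same library as the complement genes, and their part in the complement values was not tested.

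Few of the markers of other liver cells were listed. Of 10 macrophage markers 4 were listed, with a sum of 53.24 CPM without and 49.67 CPM with M2BPGi. LYZ led them (32.07 and 29.20 CPM), followed by CD68 (21.17 and 20.47 CPM), while PTPRC and CSF1R were listed at 0. LYZ and CD68 were above the hepatocyte marker ALB (8.82 and 7.04 CPM), whereas all hepatocyte markers summed to 7795.36 and 6556.59 CPM. Of 8 stellate cell or fibroblast markers 2 were listed, with a sum of 5.20 and 4.18 CPM, led by COL3A1 (4.53 and 3.42 CPM). Of 6 endothelial markers 0 were listed.

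**Figure D4:**
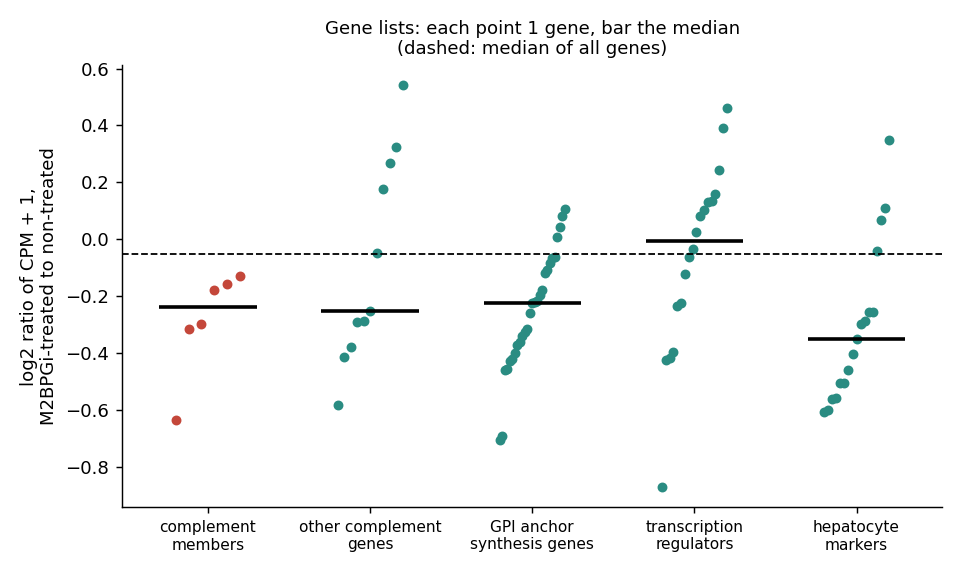
Log2 ratio of CPM + 1, M2BPGi-treated to non-treated, for each gene of 5 lists that passed the filter, with the median of each list (bar) and of all genes (dashed line, −0.05). The medians of the complement members (−0.24), the other complement genes (−0.25) and the GPI anchor genes (−0.23) lie close together, that of the hepatocyte markers is lower (−0.35), and that of the transcription regulators lies near 0.

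The members lie on different chromosomes except for CD46 and CD55, which share chromosome 1, and C1R and C1S, which share chromosome 12. CD46 and CD55 were each other's nearest tested neighbour on 1 side, with 9 genes between them. Flanking genes are the nearest tested genes on each side, and untested genes may lie between. Those of CFI on chromosome 4 had nearly equal values in both libraries, PLA2G12A with 43.39 and 44.04 CPM and GAR1 with 55.32 and 55.06 CPM. CFI, at 7.36 and 4.38 CPM, stood apart from both in value. Of the flanking genes of C3 on chromosome 19, GPR108 (81.28 and 65.04 CPM) had a log2 ratio of −0.32, equal to that of C3. The other, CD70, had 0.19 but lay close to the filter, with 1.04 and 1.33 CPM. On chromosome 9, TRAF1, which flanks C5, had 6.57 and 3.50 CPM (−0.75), and CNTRL had −0.20. The flanking genes of CD59 on chromosome 11 were HIPK3 (−0.08) and FBXO3 (0.19). On the outer sides of CD55 and CD46 lay YOD1 (−0.40) and PLXNA2 (−0.25). Of the flanking genes of CFB on chromosome 6, ZBTB12 had −0.50 and NELFE −0.0043, and C1R and C1S lay between LPCAT3 (−0.35) and C1RL (−0.38).

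The promoters of the members differed in base composition. RefSeq gave 13 windows for 7 of the 9 genes and none for C3 and C1S, whose promoters were therefore not searched. The 250 bases before each start were read. The median GC content was 58% over 35116 windows of all genes. It was 38% for CFI, 64% for CD55 and 64.8% and 67.6% for the overlapping windows of CD46. The windows of CD59 ranged from 43.6% to 70.4%. C5 had 1 start in a GC-rich window (69.2%) and another in an AT-rich window (34.8%), and from which of them the tags came was not analysed here. The following windows are shown because CFI was the member past 1.5-fold, because the C5 starts differ, and because CD46 and CD55 are membrane regulators on the same chromosome. Capitals mark matches to any motif searched, on either strand. The GRCh38.p14 positions are chr4:109802000-109802249 on the minus strand for CFI and chr9:121074866-121075115 and chr9:121050276-121050525 on the minus strand for C5. They are chr1:207751788-207752037 for CD46 and chr1:207321428-207321677 for CD55, both on the plus strand.
CFI: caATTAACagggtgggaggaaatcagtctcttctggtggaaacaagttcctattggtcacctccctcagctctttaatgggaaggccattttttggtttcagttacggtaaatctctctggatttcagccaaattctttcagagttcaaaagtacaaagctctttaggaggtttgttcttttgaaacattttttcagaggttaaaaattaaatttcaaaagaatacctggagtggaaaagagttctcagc
C5, GC-rich start: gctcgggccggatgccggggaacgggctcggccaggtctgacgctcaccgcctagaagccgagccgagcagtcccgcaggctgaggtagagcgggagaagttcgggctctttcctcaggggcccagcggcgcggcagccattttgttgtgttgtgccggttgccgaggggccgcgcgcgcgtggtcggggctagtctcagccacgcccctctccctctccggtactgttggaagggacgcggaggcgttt
C5, AT-rich start: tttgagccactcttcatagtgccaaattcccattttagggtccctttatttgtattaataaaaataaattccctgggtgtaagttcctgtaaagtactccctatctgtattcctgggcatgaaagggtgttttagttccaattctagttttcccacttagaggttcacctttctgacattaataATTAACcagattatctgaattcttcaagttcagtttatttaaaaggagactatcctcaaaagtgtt
CD46: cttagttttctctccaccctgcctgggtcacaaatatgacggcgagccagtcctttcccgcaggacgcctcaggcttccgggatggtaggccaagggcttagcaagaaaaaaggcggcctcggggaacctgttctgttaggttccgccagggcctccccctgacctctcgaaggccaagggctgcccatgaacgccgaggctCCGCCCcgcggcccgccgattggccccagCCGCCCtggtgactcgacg
CD55: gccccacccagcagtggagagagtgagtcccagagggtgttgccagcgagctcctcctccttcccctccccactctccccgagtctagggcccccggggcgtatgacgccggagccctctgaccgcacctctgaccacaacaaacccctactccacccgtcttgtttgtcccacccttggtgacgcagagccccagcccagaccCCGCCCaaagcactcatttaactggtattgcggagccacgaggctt

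The motifs searched were the TATA box (TATAAA), the GC box (GGGCGG), an NF-kB core (GGANTTTCC), a C/EBP motif (TTGCNNAA), the interferon-gamma activated site (GAS, TTCNNNGAA), the interferon-stimulated response element (ISRE, GAAANNGAA) and an HNF1 motif (GTTAAT). The GC box was found in windows of the membrane regulators CD46, CD55 and CD59, and in 42.6% of all windows. In the CD46 window shown it began 48 and 19 bases before the start, and in that of CD55 46 bases before. The HNF1 motif, held by 6.23% of all windows, began 248 bases before the start of CFI and 66 bases before the AT-rich start of C5. A window of C1R held it too. The TATA box (10.7% of all windows) was found in CFB alone among the members with a window, 30 bases before the start. CFB also held a match to the ISRE (6.88%). GAS (6.57%) was found in CFB, C1R and CD59. The C/EBP motif (9.05%) was found in C1R and CD59. The NF-kB core (1.45%) was found in none of the 13 windows. The percentages are shares of single windows, while C5, C1R, CD46 and CD59 had several windows, some of them overlapping. They can therefore not be set against a share of genes. The GAS matches of CD59 are the same letters in overlapping windows. All of these are matches of letters, not measured sites.

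Some values rest on an uncertain assignment of tags. On the same strand, gene models overlap CFI and CD59 and match the start of 6 of 8 and 11 of 12 of their transcripts. C1RL overlaps C1R and matches 14 of 17 of its transcripts, so tags of these genes cannot be told apart there. The start of 1 of 19 CD46 transcripts is 95% identical to the pseudogene CD46P1 over 200 bases, and that of 1 of 18 C3 transcripts is 95.4% identical to SNX27 over 108 bases. C2, TF and CD68 also have overlapping models, and KRT18 has pseudogenes. How tags were shared among such genes is not given in the sources used here, and its part in these values was not tested.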

How the data were processed

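CAGE tags were measured in 1 non-treated and 1 M2BPGi-treated library. Tags from ribosomal RNA or with unreadable bases had been removed by the authors, who deposited CPM for each gene with 2 decimals. Their methods name a mouse genome and BWA, while the submitters' processing notes name hg19, BWA and HISAT2. Gene identifiers are human. The rule that gave a tag to a gene is not given in the sources used here.

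The members and gene lists were chosen with earlier results of these data known. Tag numbers were inferred as the whole numbers that give each CPM within its rounding (0.005 CPM). This held for 100% of values above 0. A stricter check of the same values did not accept whole tags for enough of them, so no count test was run. The inferred tags were used for totals, tag numbers of genes, shares, ratios of tags, and the counting intervals of levels, shares and ratios. Genes past the fold were counted on CPM. Listed genes held 94.1% and 94.4% of each library. Log2 ratios used a pseudocount of 1 CPM, genes with a mean of at least 1 CPM and a fold of 1.5. Named genes were the members, the other complement genes with a mean of at least 1 CPM, the most abundant gene and the 2 highest and 2 lowest ratios of each other list among genes with a mean of at least 10 CPM, and the flanking genes. Some genes that this rule selects are not reported here. Sums, shares, pairs compared by level, and groups by level and length were chosen after the values were seen. So were the motif letters, chosen after the promoters had been seen. The NF-kB motif is a core in place of the shorter site that had been planned, and 250 bases were searched in place of the whole window.

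Gene order came from RefSeq GRCh38.p14. Copies and overlaps were searched in GENCODE v29 with BLAST 2.17.0 from the first 500 nt of each transcript (at least 100 nt and 95% identity). Python 3.11.15 and scipy 1.17.1 were used. The scripts' functions were tested on simulated data. Alternatives were other pseudocounts, filters, folds, a rescaling and 1 value per symbol.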

Additional observations from a re-analysis of the deposited data

How the results depend on the processing

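Pseudocounts and filters cannot turn the sign of a gene's ratio, and each member has 1 value per symbol already, so the direction was tried by the rescaling alone, under which the log2 ratios of the 6 members were from −0.58 to −0.08. Over all settings they were from −0.74 to −0.08. With a mean of at least 10 CPM, CFI gave no value. After the rescaling, C3 had −0.26 and CD59 −0.11. The members' median was −0.19 after the rescaling and −0.18 without a filter, with a mean of at least 10 CPM and without CFI. The last was added after the data were seen, as were the alternatives for all genes, other medians and other named genes. The count of 1 member past the fold was 0 with a pseudocount of 5 CPM, the higher filter, the rescaling, a fold of 2 and without CFI, and 3 (C3, CD46 and CFI) with a fold of 1.2.

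Other complement genes past the fold were 1 higher (CFD) and 2 lower (C2 among them) with a pseudocount of 0.1 CPM, 1 higher (CFD) after the rescaling, and 3 higher and 5 lower with a fold of 1.2. The 2 lower GPI anchor genes became 0 with a pseudocount of 5 CPM, the higher filter and a fold of 2, and 12 with a fold of 1.2. The 1 lower transcription regulator became 0 with a fold of 2, and 2 higher and 4 lower were counted with a fold of 1.2. Over all genes, 219 higher and 555 lower became 336 and 856 with a pseudocount of 0.1 CPM, 91 and 164 with 5 CPM, 135 and 223 with the higher filter, 1787 and 3323 with a fold of 1.2, and 33 and 59 with a fold of 2. Fewer genes were tested with the higher filter (9464).

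The median of the other complement genes ranged from −0.27 with a mean of at least 10 CPM to −0.05 without a filter, that of the GPI anchor genes from −0.24 to −0.17, and that of the transcription regulators from −0.06 to 0.05. Among other named genes, the ratios of C9, CD68, GAR1 and NELFE turned to above 0 after the rescaling.

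No paired analysis was possible because a single library stood for each condition and no test was made. For the same reason no library was left out. Depth limits the counting error: 109 tags of CFI leave a wide interval. The spread between cultures is unknown.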
